A study of Mus musculus with 6 samples.

Results

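The Hox genes of the *Hoxa*, *Hoxb*, *Hoxc* and *Hoxd* clusters were examined in collecting duct epithelial cells of normal, ADPKD and MMPP-treated ADPKD mice. Members were taken by symbol, as the letters Hox, a cluster letter from a to d and a paralog number, which found 39 genes among the 55367 symbols listed. The *Hoxa* cluster gave 11 of them, *Hoxb* 10, *Hoxc* 9 and *Hoxd* 9. A test across all genes required an FPKM (fragments per kilobase of gene, scaled to sequencing depth) of at least 1 in at least 2 libraries, which 29 Hox genes and 14862 genes in all passed. The 10 members left out reached at most 1.17 FPKM in any library, and 3 of these (*Hoxb13*, *Hoxc12* and *Hoxd12*) were listed at 0 in all 6 libraries.

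Polyadenylated RNA was sequenced from kidney cells that bind Dolichos biflorus agglutinin (DBA), a lectin that marks collecting duct epithelium, collected at Day115. WT mice and *Pkd1*-/- (ADPKD) mice received saline, and a further group of *Pkd1*-/- mice received MMPP, a melanin-like nanoparticle with chelated manganese and polyethylene glycol, by intravenous injection. Each group had 2 libraries. *Pkd1* was deleted in young male mice of the *Pkd1* fl/fl;Cre/Esr1+ line by tamoxifen-activated Cre recombinase, and the methods name no cell type to which this Cre is limited. The methods give the other genotype as *Pkd1*+/+, and whether those mice carried Cre is not given in the sources used here. The labels call the cells kidney tubular epithelial cells, and their protocol text also mentions whole kidney RNA. The labels do not say whether the libraries of a group came from different mice, so the p-values given here measure only the spread between these libraries, which may be technical.

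Hox genes encode homeodomain transcription factors that specify position along the body axis. Within a cluster they lie in the order in which they are used, with low paralog numbers acting towards the head and high numbers towards the tail, and adult cells often keep the combination set in the embryo. The collecting duct grows from the ureteric bud, in which *Hoxb7* is active, and the *Hoxa11*, *Hoxc11* and *Hoxd11* paralogs act together in the mesenchyme that induces it.

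*Pkd1*, the targeted gene, had 17.7 and 17.2 FPKM in WT, 7.64 and 8.91 in ADPKD and 4.34 and 3.99 with MMPP (log2 fold change in ADPKD of -0.998, SE 0.13, adjusted p = 0.00566 from limma). The WT and ADPKD libraries held 30.6 to 33.1 M reads (M for mega), as recovered from the steps between low FPKM values, whereas the MMPP libraries held 11.8 and 10.9 M. The MMPP libraries stood apart in another way, since odd read numbers made up 7.67% and 7.17% of their low values and 35.2 to 37.2% in the others. ADPKD replicate 2 had the lowest summed principal cell markers of the 6 libraries, at 958 FPKM against 2097 to 5459 in the rest. Podocyte markers summed to 900 and 1231 FPKM in WT, so the libraries were not free of other kidney cells. In such mixed samples fewer cells of a type and less RNA per cell cannot be told apart.

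In WT cells the central members of the clusters were the most abundant. FPKM is scaled to gene length, so levels can be set side by side between genes, and 12 of the 39 genes had a WT mean of at least 10 FPKM. *Hoxb6* was highest at 57.6 and 58.5 FPKM, followed by *Hoxd8* at 42.3 and 43.2 and *Hoxa5* at 39.8 and 41.5. *Hoxb9* stood at 35.3 and 36.2 FPKM, below *Hoxa5*. The ranges of *Hoxd8* and *Hoxa5* were separated by less than 1 FPKM, whereas *Hoxb6* and *Hoxb9* were apart from both by more than the spread between the WT libraries.

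Anterior genes (paralogs 1 to 3) contributed 5.47% of the summed Hox FPKM of WT cells, central genes (paralogs 4 to 8) 69.4% and posterior genes (paralogs 9 to 13) 25.1%. By cluster the shares were 28.2% for *Hoxa*, 42.0% for *Hoxb*, 11.1% for *Hoxc* and 18.7% for *Hoxd*. Some members at the ends of the clusters were close to 0. *Hoxa13*, *Hoxb1*, *Hoxc13* and *Hoxd13* stayed under 0.2 FPKM in every library, and *Hoxd1* reached 0.492.

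**Figure D1:**
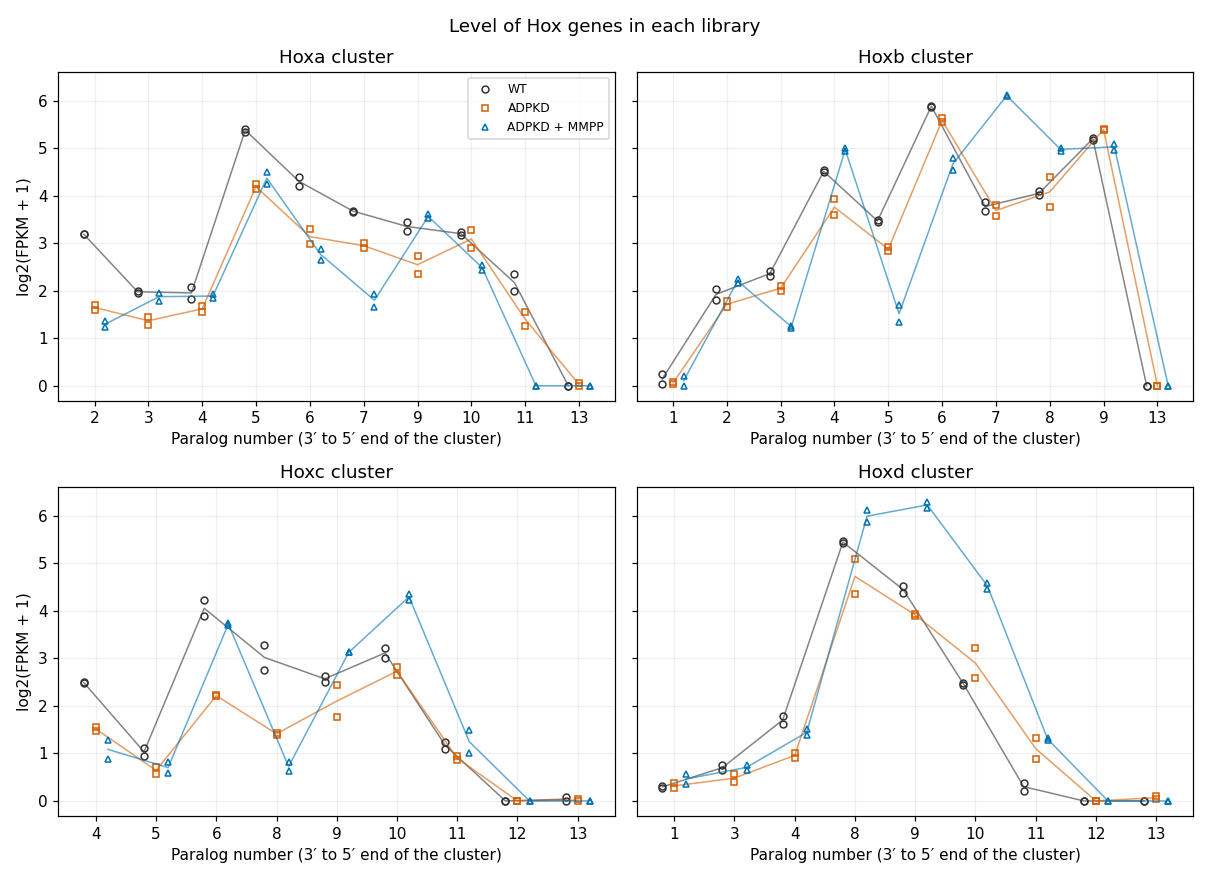
Level of 38 of the 39 Hox genes in each library, as log2(FPKM + 1) against paralog number, in a panel for each cluster. Circles are the WT libraries, squares ADPKD and triangles MMPP-treated ADPKD, with 2 libraries a group and a line through each group mean. WT lies above ADPKD along most of *Hoxa* and *Hoxc*, the groups lie close together at *Hoxb6* to *Hoxb9* apart from the MMPP libraries, and the MMPP libraries stand highest at *Hoxd8* to *Hoxd10*.

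Promoters of 4 members with a single transcript in the GENCODE vM21 annotation are shown. The RefSeq start used here is the same as that of this transcript for *Hoxa2* and *Hoxa5*, and differs from it for *Hoxd9* and *Hoxd10*. *Hoxa2* and *Hoxa5* were lower in ADPKD, and the neighbours *Hoxd9* and *Hoxd10* stood higher in the MMPP libraries. The runs are bases before the transcription start in RefSeq (GRCm38.p6), 5′ to 3′ on the strand of the gene, with each CG dinucleotide in capitals. The *Hoxd9* run stops at the GENCODE gene start, which lies before the RefSeq start. The bases between these starts are left out. They lie at chr6:52164832-52165081 (- strand) for *Hoxa2*, chr6:52204588-52204837 (- strand) for *Hoxa5*, chr2:74697513-74697726 (+ strand) for *Hoxd9* and chr2:74691641-74691890 (+ strand) for *Hoxd10*.
Hoxa2: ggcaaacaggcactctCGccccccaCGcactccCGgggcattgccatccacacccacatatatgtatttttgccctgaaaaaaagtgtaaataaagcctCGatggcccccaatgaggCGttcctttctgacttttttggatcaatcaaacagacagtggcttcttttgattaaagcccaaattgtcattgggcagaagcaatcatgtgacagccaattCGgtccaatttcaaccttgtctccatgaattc
Hoxa5: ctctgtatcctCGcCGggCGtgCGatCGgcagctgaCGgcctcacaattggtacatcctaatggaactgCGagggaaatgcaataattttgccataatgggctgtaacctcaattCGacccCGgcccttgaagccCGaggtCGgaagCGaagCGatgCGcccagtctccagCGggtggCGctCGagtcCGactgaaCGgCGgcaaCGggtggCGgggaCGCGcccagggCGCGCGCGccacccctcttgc
Hoxd9: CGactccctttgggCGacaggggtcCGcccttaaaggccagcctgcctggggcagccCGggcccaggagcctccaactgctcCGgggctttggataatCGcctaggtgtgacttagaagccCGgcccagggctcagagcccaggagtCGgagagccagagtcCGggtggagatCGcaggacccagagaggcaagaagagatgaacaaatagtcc
Hoxd10: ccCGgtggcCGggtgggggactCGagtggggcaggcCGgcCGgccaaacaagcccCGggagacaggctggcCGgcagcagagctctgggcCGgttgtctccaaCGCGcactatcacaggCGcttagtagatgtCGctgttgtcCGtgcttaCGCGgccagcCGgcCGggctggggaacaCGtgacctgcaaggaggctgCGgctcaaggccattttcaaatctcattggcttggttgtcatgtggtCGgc

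The *Hoxa2* run held 6 CG dinucleotides in 250 bases, *Hoxa5* 28 in 250, *Hoxd9* 10 in the 214 of its cut run and *Hoxd10* 20 in 250. The promoters of the pair that was lower in ADPKD thus held the fewest and the most of the 4. RefSeq windows from 250 bases before to 50 after a start were found for 22 of the 39 genes, 24 windows in all. Their median number of CG dinucleotides was 14.5, against 7 over 32851 windows of all genes. TATAAA, searched on both strands, was in 4 Hox windows (16.7%) and in 13.6% of all windows.

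Most Hox genes were lower in ADPKD than in WT, above all in the *Hoxa* cluster and among the low-numbered members of *Hoxc*. A gene was called when its fold change was at least 1.5 either way with an unadjusted P under 0.05 in limma on log2(FPKM + 1). On that scale changes of low genes are understated. The filter also admits genes that reach 1 FPKM only in the group where they are higher. Such genes stay in the counts of either direction. Of the 29 Hox genes tested 15 fell and 1, *Hoxd11*, rose, so that 55.2% were called against 26.7% of all genes tested. The share called lower was 51.7% against 12.5% of all genes, and the share called higher was 3.45% against 14.2%. The median log2 fold change of the 29 was -0.59, against 0.03 over all genes. WT and ADPKD had separate FPKM ranges in 23 genes with ADPKD lower and in 3 with ADPKD higher, as 31.5% and 35.5% of all genes did. Of the 16 called genes 15 also had an adjusted p under 0.05 over all genes tested, the exception being *Hoxd8*. In ADPKD replicate 1, 25 of the 29 lay below the WT mean, and in replicate 2, 24 did. Without ADPKD replicate 2, the library low in principal cell markers, 14 genes were called lower and 0 higher.

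In the *Hoxa* cluster on chromosome 6, 8 of the 10 tested genes fell. *Hoxa2*, which patterns the hindbrain and the second branchial arch, stood at 8.11 and 8.13 FPKM in WT and at 2.27 and 2.003 in ADPKD (log2 fold change -1.54, SE 0.12, adjusted p = 0.00302 from limma). *Hoxa5*, known for its part in lung development, stood at 39.8 and 41.5 FPKM in WT and 16.7 and 17.8 in ADPKD (log2 fold change -1.19, SE 0.14). *Hoxa6*, its neighbour, stood at 17.5 and 20.03 FPKM in WT and 6.92 and 8.78 in ADPKD (log2 fold change -1.16, SE 0.17). All of them were over 2-fold lower with no overlap between groups. *Hoxa5* lies at chr6:52201754-52204587 (- strand), directly after its promoter printed above, which had the most CG dinucleotides.

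*Hoxa7* stood at 11.7 and 11.9 FPKM in WT and at 6.41 and 7.04 in ADPKD. *Hoxa9*, a regulator of blood progenitors, stood at 8.57 and 9.91 FPKM in WT and at 4.14 and 5.65 in ADPKD. Both were called lower, with log2 fold changes of -0.73 and -0.81. *Hoxa3*, needed for the thymus and parathyroid, stood at 2.996 and 2.88 FPKM in WT and at 1.43 and 1.74 in ADPKD, and its call was lost without ADPKD replicate 1 (log2 fold change -0.53). *Hoxa11*, a kidney-inducing paralog, stood at 2.97 and 4.11 FPKM in WT and at 1.37 and 1.94 in ADPKD. *Hoxa4* (log2 fold change -0.34) and *Hoxa10* (-0.11) did not pass, and *Hoxa10* overlapped between the groups.

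The *Hoxc* cluster on chromosome 15 held the largest difference among the Hox genes tested, that of *Hoxc6*. *Hoxc6* (chr15:102998257-103011881) stood at 13.8 and 17.7 FPKM in WT and at 3.63 and 3.67 in ADPKD (log2 fold change -1.84, SE 0.15, adjusted p = 0.00308 from limma). *Hoxc8*, which acts in the thoracic skeleton and spinal cord, stood at 5.80 and 8.69 FPKM in WT and at 1.62 and 1.71 in ADPKD (log2 fold change -1.61, SE 0.20). *Hoxc4* stood at 4.64 and 4.62 FPKM in WT and at 1.79 and 1.94 in ADPKD (log2 fold change -0.97, SE 0.16). These central genes fell, while the posterior members *Hoxc9*, *Hoxc10* and *Hoxc11* had log2 fold changes of -0.47, -0.38 and -0.27 and were not called. *Hoxc9* was at 2.39 FPKM in ADPKD replicate 1 and 4.44 in replicate 2, and without replicate 2 it was called lower (log2 fold change -0.81).

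The *Hoxb* cluster on chromosome 11 changed in few members. *Hoxb4*, known from blood stem cells, stood at 22.2 and 21.5 FPKM in WT and at 11.1 and 14.2 in ADPKD (log2 fold change -0.75, SE 0.15, adjusted p = 0.0180 from limma). *Hoxb5* stood at 9.92 and 10.2 FPKM in WT and at 6.59 and 6.09 in ADPKD (log2 fold change -0.59), and was not called without WT replicate 2 (-0.57) or without ADPKD replicate 2 (-0.55). The other 6 tested genes of this cluster were not called. Among them were *Hoxb6* to *Hoxb9*, each with a WT mean of at least 10 FPKM.

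*Hoxb6* stood at 57.6 and 58.5 FPKM in WT and at 45.6 and 48.5 in ADPKD (log2 fold change -0.30, SE 0.13). *Hoxb7*, the ureteric bud gene whose promoter drives many collecting duct transgenes, stood at 11.8 and 13.6 FPKM in WT and at 13.002 and 10.9 in ADPKD (log2 fold change -0.09, SE 0.14). *Hoxb8* stood at 16.1 and 15.1 FPKM in WT and at 12.7 and 19.97 in ADPKD (log2 fold change 0.03, SE 0.22). For *Hoxb7* and *Hoxb8* the groups overlapped. *Hoxb9* stood at 35.3 and 36.2 FPKM in WT and at 40.7 and 41.5 in ADPKD, higher in both libraries but by a log2 fold change of only 0.20 (SE 0.12), which did not pass.

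The *Hoxd* cluster on chromosome 2 held members of either direction. *Hoxd4* stood at 2.09 and 2.44 FPKM in WT and at 1.03 and 0.868 in ADPKD (log2 fold change -0.74, SE 0.13). *Hoxd8* stood at 42.3 and 43.2 FPKM in WT and at 33.2 and 19.5 in ADPKD (log2 fold change -0.72, SE 0.26, adjusted p = 0.0899 from limma). The *Hoxd8* call was lost without ADPKD replicate 2 (log2 fold change -0.35), without WT replicate 1 (-0.74) or 2 (-0.71), and without either MMPP library (-0.72). *Hoxd9*, a posterior gene of the limb and trunk, stood at 19.9 and 21.9 FPKM in WT and at 13.97 and 14.3 in ADPKD. Its log2 fold change of -0.53 (SE 0.12, adjusted p = 0.0265 from limma) stayed under the 1.5-fold limit, which it passed without WT replicate 1 (-0.60).

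*Hoxd11*, a kidney-inducing paralog, stood at 0.163 and 0.307 FPKM in WT and at 0.833 and 1.52 in ADPKD (log2 fold change 0.80, SE 0.18, adjusted p = 0.0264 from limma). It reached 1 FPKM only in ADPKD replicate 2 and the MMPP libraries, so it entered the test only through groups where it was higher. Its WT values rested on 21 and 40 reads, and the call was lost without ADPKD replicate 2 (log2 fold change 0.57). *Hoxd10*, its neighbour, stood at 4.63 and 4.43 FPKM in WT and at 5.03 and 8.28 in ADPKD (log2 fold change 0.44, SE 0.22). It was not called, and was called higher without ADPKD replicate 1 (0.75). *Hoxa11* and *Hoxd11*, of the same paralog group, thus lay on opposite sides of their WT levels, and *Hoxc11* stood at 1.15 and 1.36 FPKM in WT and 0.808 and 0.926 in ADPKD without a call.

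**Figure D2:**
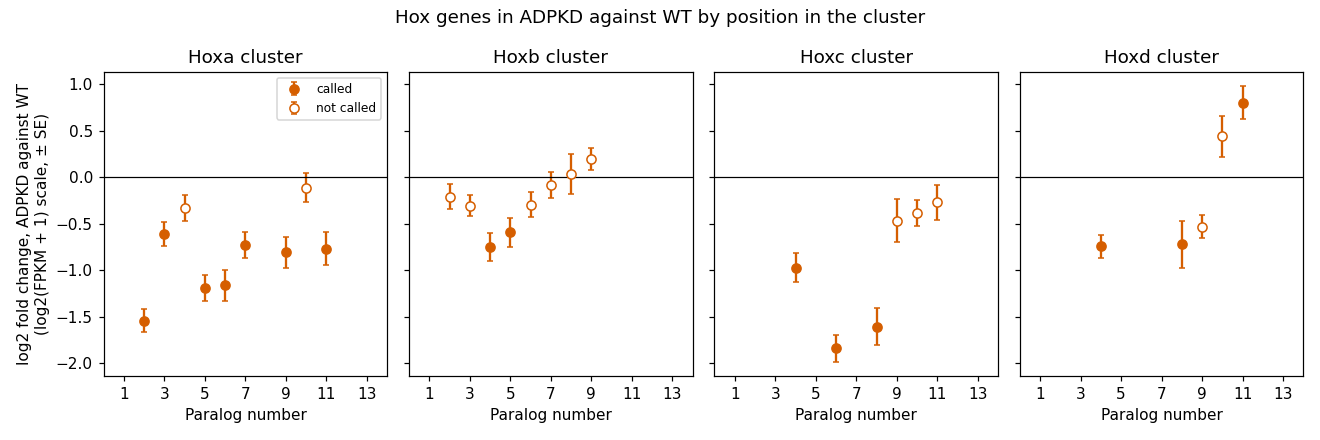
Log2 fold change of 28 of the 29 tested Hox genes in ADPKD against WT (log2(FPKM + 1) scale, bars are SE, n = 2 libraries a group) by paralog number, in a panel for each cluster. Filled points were called at 1.5-fold and P under 0.05. The filled points lie below 0 apart from *Hoxd11*, and in *Hoxb*, *Hoxc* and *Hoxd* the points rise towards the posterior end.

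By position, 3 of 5 anterior, 10 of 14 central and 2 of 10 posterior genes were called lower, and the 1 gene called higher was posterior. The medians of the log2 fold change were -0.61, -0.74 and -0.33 in that order. Spearman's rho between the log2 fold change and the paralog number was 0.396 across the 29 genes, which share libraries and are not independent. Within clusters rho was 0.370 in *Hoxa* (10 genes), 0.691 in *Hoxb* (8), 0.829 in *Hoxc* (6) and 1 in *Hoxd* (5). It kept its sign in every cluster when each WT or ADPKD library was left out, and across the 29 genes it ranged from 0.330 to 0.456. In *Hoxa* it was lowest without WT replicate 1, at 0.139, and without ADPKD replicate 2, at 0.164. The difference between classes was not tested. *Hoxd11*, with the highest log2 fold change of *Hoxd*, passed the filter only through libraries of the groups where it was higher. Any gene that passed it only through WT was likewise kept among those called lower. The median change was -0.79 in *Hoxa*, -0.25 in *Hoxb*, -0.72 in *Hoxc* and -0.53 in *Hoxd*.

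Neighbouring and antisense genes share bases with several members, and the strand setting of the counting is not given in the sources used here, so reads of such pairs cannot be told apart. Of the 15 genes that fell, 7 (*Hoxa5*, *Hoxa6*, *Hoxb4*, *Hoxc4*, *Hoxc6*, *Hoxc8* and *Hoxd8*) share no exon base with another gene in GENCODE vM21. *Hoxd4* shares 52.3% of its exon bases, with *Hoxd3* and *Hoxd3os1*, and *Hoxa11* shares 35.0%, mainly with its antisense RNA *Hoxa11os*. *Hoxa3* shares 27.1%, *Hoxa7* 20.4% and *Hoxa2* 15.0%. Their values are therefore uncertain.

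All 15 genes that fell, and *Hoxd11*, were also called in the same direction after rescaling to a common FPKM sum, with TMM factors, after quantile normalization and after centring by transcript structure. The change bore little relation to transcript structure in this comparison. Across the 29 genes rho with exon uniqueness, the percentage of a gene's exon bases that only 1 annotated transcript covers, was 0.0135. Of the 9 tested Hox genes with only 1 annotated transcript 4 were called lower, and their median log2 fold change was -0.53.

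The genes that work with Hox proteins changed unevenly in ADPKD. Among the 9 TALE homeodomain cofactors, which bind DNA together with Hox proteins, 3 fell, with *Meis2* and *Pbx2* among them, and 2 rose (*Meis3* and *Pbx4*), beside the 12.5% and 14.2% of all genes. *Pbx4* was at 0.782 and 0.903 FPKM in WT, so it entered the test only through groups where it was higher. *Meis2* stood at 26.5 and 20.45 FPKM in WT and at 9.15 and 5.60 in ADPKD (log2 fold change -1.57, SE 0.24, adjusted p = 0.00909 from limma). The summed FPKM of the 9 cofactors was 83.2 and 73.8 in WT and 45.6 and 34.5 in ADPKD.

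Among chromatin regulators that hold Hox clusters silent or active no gene reached the call in ADPKD. Of 14 Polycomb genes none was called, with a median log2 fold change of -0.16, and 4 of them (*Bmi1*, *Cbx7*, *Pcgf2* and *Ring1*) had an unadjusted P under 0.05 in limma, under 1.5-fold. Of 9 Trithorax and H3K27 demethylase genes none was called, with a median of -0.00202, and 2 (*Kdm6b* and *Wdr5*) had an unadjusted P under 0.05. Of the 12 genes listed as flanking the clusters 11 were in the files and 6 were tested. None of these 6 was called, with a median of 0.13, and *Calcoco1* beside *Hoxc* and *Lnpk* beside *Hoxd* had an unadjusted P under 0.05. Some non-coding RNAs inside the clusters also fell. Of 10 listed 6 were tested and 3 were called lower, all of *Hoxa*: *Hotairm1* (log2 fold change -0.88), *Hoxaas2* (-1.01) and *Hoxaas3* (-0.59).

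Of 9 partners and targets of Hox proteins in the embryonic kidney, 4 were expressed highly enough to be tested. *Itga8*, an integrin of the nephrogenic mesenchyme, stood at 135.4 and 118.0 FPKM in WT and at 22.9 and 3.88 in ADPKD. *Wt1*, a podocyte transcription factor, stood at 27.7 and 44.6 FPKM in WT and at 6.39 and 4.02 in ADPKD. Both were called lower, as 12.5% of all genes were, while *Pax2* (log2 fold change 0.48) and *Sall1* (0.51) were not called. *Wt1* is also 1 of the 5 podocyte markers below, all of which were called lower. Whether these changes relate to the Hox genes was not tested. *Six2*, which marks nephron progenitors, stayed at or under 0.0589 FPKM in all libraries.

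Markers of other kidney cells moved between WT and ADPKD beside the Hox genes. Over all genes 14.2% were called higher and 12.5% lower. Podocyte markers were called lower in 5 of 5 (summed FPKM 900 to 1231 in WT, 90.8 to 205 in ADPKD) and endothelial markers in 7 of 7 (645 to 775, then 290 to 305). Intercalated cell markers were called lower in 6 of 6 (242 to 260, then 26.3 to 63.6) and thick limb and distal convoluted tubule markers in 3 of 6 (517 to 1301, then 191 to 631). Leukocyte markers were called higher in 6 and lower in 1 of 7 tested (58.8 to 59.7, then 295 to 354), stromal markers higher in 4 and lower in 1 of 7 (111 to 138, then 186 to 211). Proximal tubule markers were called higher in 5 and lower in 1 of 14 (609 to 816, then 1491 to 2092), and urothelial markers higher in 1 of 5 tested (2.94 to 4.06, then 48.3 to 62.3). That 1 urothelial gene, *Krt20*, made up most of the sum in ADPKD, at 44.9 and 59.8 FPKM against 0.628 and 1.86 in WT. Principal cell markers were called higher in 1 and lower in 0 of 9 tested (2097 to 2798, then 958 to 2507). Their ADPKD values were spread widely, as for *Hsd11b2* at 432 and 56.4 FPKM, so the lack of lower calls does not show that they were unchanged. *Avpr2*, a principal cell marker, was under 0.06 FPKM in all libraries, and the part of these cells in the Hox values was not tested.

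The MMPP libraries had more Hox FPKM in sum than the ADPKD libraries. Among tested Hox genes with reads in both groups the largest differences were in *Hoxb7* and *Hoxd9*. Of the 29 genes 18 were called between these groups, which is 62.1% against 70.9% of all genes. The 10 genes that were higher made 34.5% against 27.9% of all genes, and the 8 that were lower made 27.6% against 43.0%. These shares lie near or below those of all genes. The median log2 fold change was 0.27 over the Hox genes and -0.36 over all genes. Other scalings moved the median of all genes to -0.55 (common FPKM sum), -0.14 (TMM factors) and 0.10 (quantile normalization). They moved the split of higher to lower Hox calls from 10 and 8 to 10 and 11, 13 and 6, and 16 and 3.

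The values after treatment followed the transcript structure of the genes. Over 12375 protein-coding genes Spearman's rho between exon uniqueness and the log2 fold change was 0.649 in MMPP-treated ADPKD against ADPKD, and 0.0451 in ADPKD against WT. Across the 29 Hox genes it was 0.587. *Hoxa11*, with an exon uniqueness of 8.26%, was listed at 0 in both MMPP libraries, so no fold is given, although it is among the genes counted as lower. It stood at 1.37 and 1.94 FPKM in the ADPKD libraries. An effect of the treatment and of how the MMPP values were made cannot be told apart. Centred by transcript structure, 7 Hox genes were called higher and 8 lower. After this centring rho with exon uniqueness across the 29 Hox genes was -0.590. In MMPP-treated ADPKD against WT it went from 0.480 to -0.446. The centring thus reversed the link in the Hox genes instead of removing it, so signs and calls under it are not free of structure.

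**Figure D3:**
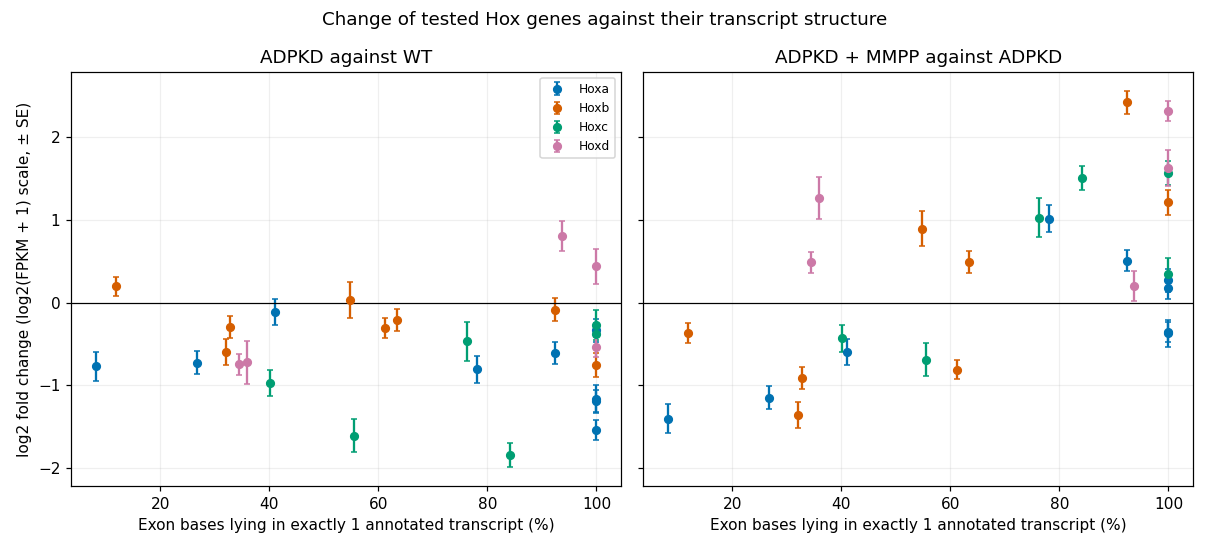
Log2 fold change of 28 of the 29 tested Hox genes (log2(FPKM + 1) scale, bars are SE) against exon uniqueness, the percentage of a gene's exon bases that only 1 annotated transcript covers, for ADPKD against WT (left) and MMPP-treated ADPKD against ADPKD (right). Colours mark the cluster. On the left the points show no slope (rho 0.0135 over all 29 genes), and on the right they rise (rho 0.587) with *Hoxb7* and *Hoxd9* at the top.

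Among tested Hox genes with reads in both groups *Hoxb7* had the largest difference. It stood at 13.002 and 10.9 FPKM in ADPKD and at 67.3 and 68.6 in the MMPP libraries (log2 fold change 2.42, SE 0.14, adjusted p = 5.37e-05 from limma). *Hoxd9* stood at 13.97 and 14.3 FPKM in ADPKD and at 71.1 and 77.4 with MMPP (log2 fold change 2.32, SE 0.12, adjusted p = 4.02e-05 from limma). *Hoxd10* stood at 5.03 and 8.28 FPKM in ADPKD and at 21.2 and 22.9 with MMPP (log2 fold change 1.62, SE 0.22). These 3 genes were above every ADPKD and WT library in both MMPP libraries. *Hoxb7* has 92.4% exon uniqueness and *Hoxd9* and *Hoxd10* have 100%, and centred by transcript structure their log2 fold changes were 0.76, 0.66 and -0.04.

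*Hoxd8* stood at 33.2 and 19.5 FPKM in ADPKD and at 57.7 and 68.3 with MMPP (log2 fold change 1.27, SE 0.26). *Hoxb8* stood at 12.7 and 19.97 FPKM in ADPKD and at 29.8 and 31.2 with MMPP (log2 fold change 0.89, SE 0.22). Their exon uniqueness is 35.8% and 54.7%. *Hoxb7*, *Hoxb8*, *Hoxd8* and *Hoxd9* were the genes called higher as deposited and under the common sum, TMM, quantile and structure-centred scalings alike, and no gene was called lower under all of them. *Hoxb4* stood at 11.1 and 14.2 FPKM in ADPKD and at 31.2 and 29.6 with MMPP (log2 fold change 1.21, SE 0.15), which turned to -0.45 when centred by structure.

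*Hoxc6* stood at 3.63 and 3.67 FPKM in ADPKD and at 12.03 and 12.4 with MMPP (log2 fold change 1.51, SE 0.15). *Hoxa9* stood at 4.14 and 5.65 FPKM in ADPKD and at 10.5 and 11.2 with MMPP (log2 fold change 1.02, SE 0.17). Centred by structure, these log2 fold changes were -0.16 and -0.35. Against WT, *Hoxc6* with MMPP had a log2 fold change of -0.33 and was not called, but was called lower with a common FPKM sum (-0.70) and centred by structure (-2.00). *Hoxa9* had 0.21 against WT without a call, and was called lower centred by structure (-1.13). The other genes called higher were *Hoxc9* (log2 fold change 1.03) and *Hoxc10* (1.57).

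Among genes that were lower, *Hoxb6* went from 45.6 and 48.5 FPKM in ADPKD to 22.3 and 26.8 with MMPP (log2 fold change -0.91, SE 0.13). *Hoxa7* went from 6.41 and 7.04 FPKM to 2.83 and 2.17 (log2 fold change -1.15, SE 0.14). *Hoxb5* went from 6.59 and 6.09 FPKM to 1.52 and 2.24 (log2 fold change -1.36, SE 0.16). These genes have low exon uniqueness, 32.7%, 26.7% and 32.0%, and centred by structure their log2 fold changes were -0.09, 0.02 and -0.53. *Hoxc8* went from 1.62 and 1.71 FPKM to 0.538 and 0.777 on 18 and 24 reads, and its call was lost without ADPKD replicate 2 (log2 fold change -0.67) or MMPP replicate 1 (-0.58). *Hoxa10* (-0.60) was lost without the same libraries (-0.42 and -0.55), and *Hoxb3* (-0.81) was the other gene called lower.

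Some members were not called between ADPKD and MMPP. *Hoxa5* stood at 16.7 and 17.8 FPKM in ADPKD and at 18.0 and 21.6 with MMPP (log2 fold change 0.18, SE 0.14). *Hoxa2* stood at 2.27 and 2.003 FPKM in ADPKD and at 1.57 and 1.34 with MMPP (log2 fold change -0.35, SE 0.12), and *Hoxa6* had a log2 fold change of -0.37 (SE 0.17). *Hoxb9* stood at 40.7 and 41.5 FPKM and at 33.2 and 30.1 (log2 fold change -0.37, SE 0.12). *Hoxa2*, *Hoxa5* and *Hoxa6* have 1 annotated transcript each. The 9 tested Hox genes of that kind had a median log2 fold change of 0.35, against 1.10 over 1309 such genes of all kinds. Centred on those genes, 1 of the 9 (*Hoxd9*, 1.16) was called higher and 5 lower.

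*Hoxc4* stood at 1.79 and 1.94 FPKM in ADPKD and at 0.857 and 1.43 with MMPP (log2 fold change -0.43), and was called lower without MMPP replicate 2 (-0.63). *Hoxa3* stood at 1.43 and 1.74 FPKM in ADPKD and at 2.45 and 2.90 with MMPP (0.51), and was called higher without ADPKD replicate 2 (0.59) or MMPP replicate 1 (0.59). *Hoxc11* stood at 0.808 and 0.926 FPKM and at 1.01 and 1.81 (0.35), and was called higher without MMPP replicate 1 (0.59). *Hoxd4* stood at 1.84 and 1.62 FPKM with MMPP (0.49) and *Hoxd11* at 1.49 and 1.44 (0.20), and neither was called. These calls depended on the scaling. Centred by structure, *Hoxa3* (-1.15), *Hoxc11* (-1.31) and *Hoxd11* (-1.46) were called lower, and with quantile normalization all 3 were called higher (1.16, 1.02 and 0.88). *Hoxd4* was called higher with TMM factors (0.69), quantile normalization (1.16), centring by structure (1.32) and a pseudocount of 0.1 (0.81).

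Markers of kidney cells were called often in this comparison, in which 27.9% of all genes were called higher and 43.0% lower. The link of the MMPP values to exon uniqueness holds for all genes, so it can shift marker values too. Proximal tubule markers were called higher in 11 of 14, and their summed FPKM was 1491 to 2092 in ADPKD and 23070 to 24230 with MMPP. Principal cell markers summed to 2507 and 958 FPKM in ADPKD and to 5438 and 5459 with MMPP, with 4 higher and 3 lower of 9 tested. Intercalated cell markers were higher in 6 of 6, thick limb and distal convoluted tubule markers higher in 2 and lower in 1 of 6, and urothelial markers higher in 4 of 5. Podocyte markers were lower in 3 of 5 and endothelial markers in 5 of 7. Leukocyte markers were higher in 3 and lower in 4 of 7, and stromal markers higher in 3 and lower in 3 of 7. Their part in the Hox values was not tested.

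The companions of the Hox genes were also called often in the MMPP libraries, where 70.9% of all genes were. Of the TALE cofactors 1 (*Pknox1*) was higher and 5 were lower, with *Meis2* at 0.338 and 0.244 FPKM. Of the Polycomb genes 4 were higher and 8 lower, and of the Trithorax and demethylase genes 1 was higher and 6 lower. Of the 6 tested flanking genes 3 (*Cbx5*, *Hibadh* and *Mtx2*) were higher and 2 (*Calcoco1* and *Lnpk*) lower. Of the non-coding RNAs of the clusters 2 were higher and 1 lower of 6. Of the partners and targets of Hox proteins *Sall1* was higher, and *Itga8* and *Wt1* were lower.

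Set against WT, the MMPP libraries as deposited had lower values of most *Hoxa* genes and higher values of the tested posterior *Hoxd* genes. The higher calls of these *Hoxd* genes were not kept when centred by structure. Of the 29 genes 18 were called, 62.1% against 73.9% of all genes. The 6 that were higher made 20.7% against 30.1% of all genes, and the 12 that were lower made 41.4% against 43.8%, so the shares were no higher than those of all genes. TMM factors changed the split of higher to lower from 6 and 12 to 9 and 11, quantile normalization to 9 and 10, the common sum to 5 and 13 and centring by structure to 3 and 17. The median log2 fold change was -0.17 in Hox genes and -0.36 in all genes, and it became 0.13 with TMM factors and 0.20 with quantile normalization but -0.52 with a common FPKM sum, -0.73 centred by structure and -1.23 over single-transcript genes.

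In *Hoxa*, 7 of 10 genes were lower than in WT and none higher. *Hoxa2* was at 8.11 and 8.13 FPKM in WT and 1.57 and 1.34 with MMPP (log2 fold change -1.89, SE 0.12). *Hoxa5* was at 39.8 and 41.5 FPKM and at 18.0 and 21.6 (log2 fold change -1.01, SE 0.14), and *Hoxa6* at 17.5 and 20.03 FPKM and at 6.40 and 5.24 (log2 fold change -1.54, SE 0.17). *Hoxa7* was at 11.7 and 11.9 FPKM and at 2.83 and 2.17 (log2 fold change -1.88, SE 0.14). The groups did not overlap for any of these. With *Hoxa11* (listed at 0 with MMPP), *Hoxb5*, *Hoxc4* and *Hoxc8* they made up the 8 genes called lower as deposited and under each of the 4 scalings. *Hoxc8* was at 5.80 and 8.69 FPKM in WT and at 0.538 and 0.777 with MMPP, the largest decrease among Hox genes with reads in both groups (log2 fold change -2.30, SE 0.20).

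*Hoxb7* was at 11.8 and 13.6 FPKM in WT and 67.3 and 68.6 with MMPP (log2 fold change 2.33, SE 0.14). *Hoxd10* was at 4.63 and 4.43 FPKM and 21.2 and 22.9 (log2 fold change 2.06, SE 0.22), and *Hoxd9* at 19.9 and 21.9 FPKM and 71.1 and 77.4 (log2 fold change 1.78, SE 0.12). *Hoxd11*, which passed the filter only through the *Pkd1*-/- groups, was at 0.163 and 0.307 FPKM and at 1.49 and 1.44 (log2 fold change 0.998, SE 0.18). These genes were higher in both libraries, but none of the 6 genes called higher kept its call under all 4 scalings. Centred by structure the log2 fold changes of *Hoxb7*, *Hoxd10*, *Hoxd9* and *Hoxd11* were 0.56, 0.29, 0.01 and -0.77.

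Several markers differed here as well, beside 30.1% of all genes called higher and 43.8% called lower. Over protein-coding genes rho between exon uniqueness and the log2 fold change was 0.599 in this comparison. Against WT, proximal tubule markers were called higher in 12 of 14, stromal markers higher in 5 and lower in 2 of 7, and urothelial markers higher in 5 of 5 tested. Podocyte markers were called lower in 5 of 5 and endothelial markers in 7 of 7. Principal cell markers were called higher in 2 and lower in 1 of 9 tested, and intercalated cell markers higher in 1 of 6. Leukocyte markers were called higher in 3 and lower in 1 of 7 tested, and thick limb and distal convoluted tubule markers higher in 1 and lower in 3 of 6. Their part in the Hox values was not tested.

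The summed Hox FPKM was 373 and 394 in WT, 254 and 268 in ADPKD and 434 and 463 with MMPP. The sums of the WT and ADPKD libraries did not overlap, and both MMPP libraries lay above WT, which turned to below WT when all libraries were scaled to a common FPKM sum (log2 ratio -0.17). The *Hoxa* sum was 104.9 and 111.4 FPKM in WT, 48.3 and 56.6 in ADPKD and 48.9 and 51.8 with MMPP. The *Hoxc* sum was 38.7 and 46.6 FPKM in WT, 16.0 and 19.4 in ADPKD and 40.4 and 44.6 with MMPP. *Hoxa* was thus below WT in both *Pkd1*-/- groups, also with a common FPKM sum or TMM factors. As deposited *Hoxc* with MMPP lay within the WT range, but its log2 ratio to WT was -0.40 with a common FPKM sum and 0.31 with TMM factors, and its members differed in direction (*Hoxc8* -2.30, *Hoxc10* 1.18).

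The *Hoxb* sum was 159.6 and 162.6 FPKM in WT, 134.7 and 146.9 in ADPKD and 190.4 and 193.5 with MMPP. The *Hoxd* sum was 69.8 and 73.2 FPKM in WT, 54.9 and 45.0 in ADPKD and 154.1 and 172.9 with MMPP. As shares of the Hox FPKM in a library, which a common scale factor does not change, *Hoxa* made up 28.2% in WT, 20.1% in ADPKD and 11.2% with MMPP, and *Hoxd* 18.7%, 19.2% and 36.4%. *Hoxb* was the largest cluster in each group, at 42.0%, 54.0% and 42.9%. Posterior genes made up 25.1% of the Hox FPKM in WT, 33.4% in ADPKD and 38.5% with MMPP, and anterior genes 5.47%, 4.01% and 2.28%. Transcript structure differs between genes, so its link to the MMPP values can shift these shares, by an amount that was not tested. Centred by structure, log2 fold changes with MMPP against WT were 0.58 (*Hoxd4*), 1.23 (*Hoxd8*), 0.01 (*Hoxd9*), 0.29 (*Hoxd10*) and -0.77 (*Hoxd11*).

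**Figure D4:**
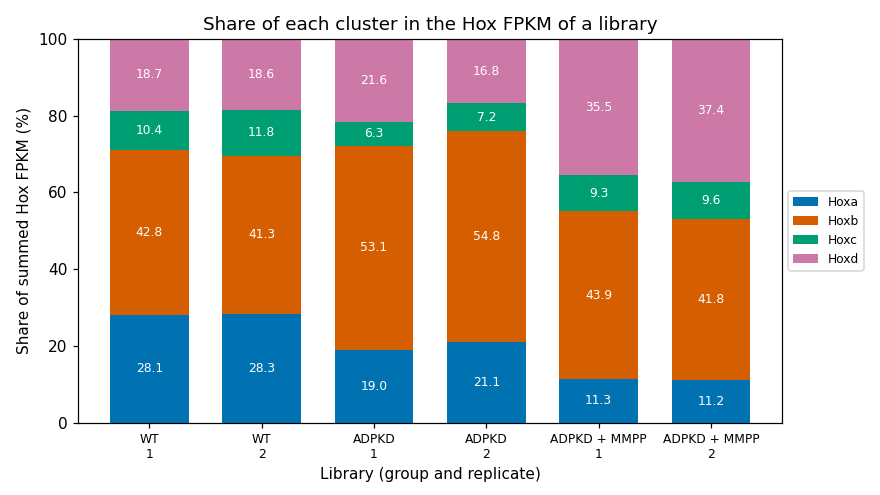
Share of the summed Hox FPKM of each library (percent, stacked to 100) that came from *Hoxa*, *Hoxb*, *Hoxc* and *Hoxd*, for the 2 libraries of each group. The share of *Hoxa* falls from 28.1% and 28.3% in WT to 19.0% and 21.1% in ADPKD and 11.3% and 11.2% with MMPP, and that of *Hoxd* in the MMPP libraries is 35.5% and 37.4%. The link of the MMPP values to exon uniqueness can shift these shares.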

How the data were processed

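RNA-seq was performed on DBA-positive kidney cells of WT, ADPKD and MMPP-treated ADPKD mice (6 libraries, 2 a group). Per the labels and the study's methods, the authors aligned reads to GRCm38/mm10 with HISAT2 2.1.0, counted them with featureCounts 1.6.0 and deposited FPKM values. The annotation, the strand setting and how FPKM was made are not given in the sources used here. FPKM keeps no error of its own, so depth was recovered from the steps between low values (10.9 to 33.1 M reads, 98.3 to 98.9% of low values whole). FPKM was tested with limma 3.58.1 (R 4.3.3) on log2(FPKM + 1), over genes of at least 1 FPKM in at least 2 libraries, in a fit of all 6 libraries with group as the factor, and Benjamini-Hochberg adjustment over all 14862 genes. Genes were called at a fold of at least 1.5 and unadjusted P under 0.05. The fit was tested on simulated data.

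Gene structure was taken from GENCODE vM21, in which 53186 symbols matched, and promoters from RefSeq. Per-library values are given for the 10 Hox genes of highest mean, those called in ADPKD against WT and the 3 largest changes of each comparison, and for others where a statement turns on them. Single values of some genes, which stay in the counts and sums, are not reported here. The members, gene lists and alternatives were chosen with earlier results of these data known. Alternatives were a pseudocount of 0.1, no filter, a mean of at least 0.5 FPKM, a common FPKM sum, TMM factors, quantile normalization, centring in 20 bins of exon uniqueness, single-transcript genes, a variance trend, a replicate block, the compared groups alone, a 2-fold limit and each library left out.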

Additional observations from a re-analysis of the deposited data

How the results depend on the processing

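The counts of Hox genes called in ADPKD against WT, MMPP-treated ADPKD against ADPKD and MMPP-treated ADPKD against WT were 16, 18 and 18, and stayed within 1.5 times of these in 53 of 57 alternatives. That rule ignores the direction and which genes were called. Genes called alike as deposited and under 4 scalings were 1 higher and 15 lower, 4 and 0, and 0 and 8. Restricted to single-transcript genes, of which 9 Hox genes were tested, the counts of called genes were 5, 6 and 7. That fit holds fewer genes and is also centred on them, and the same 9 genes had 4, 4 and 6 calls without it. A 2-fold limit left 5 in ADPKD against WT. With each library left out they ranged from 14 to 16, from 17 to 19 and from 18 to 18. With the replicate block they were 16, 18 and 18. Deviations of same-numbered libraries from their group means correlated across 14862 genes at 0.129 (WT and ADPKD), -0.00796 (WT and MMPP) and 0.0137 (ADPKD and MMPP). With 2 libraries a group this cannot show whether same-numbered libraries share more than a number. The block changed no Hox call. In MMPP-treated ADPKD against ADPKD the median log2 fold change was -0.0854 centred by exon uniqueness and -0.811 over single-transcript genes, instead of 0.27. *Hoxa5* turned to -1.48 and -0.979 there, and centred by exon uniqueness *Hoxb4* turned to -0.448, *Hoxb9* to 1.02 and *Hoxd10* to -0.0361. In MMPP-treated ADPKD against WT the median turned from -0.17 to 0.125 with TMM factors and 0.205 with quantile normalization, and moved the other way to -0.516 with a common FPKM sum, -0.730 centred by exon uniqueness and -1.23 over single-transcript genes. The log2 ratio of summed FPKM turned to -0.170 for all Hox genes and -0.143 for *Hoxb* with a common FPKM sum. *Hoxb4* turned to -1.31 centred by exon uniqueness and -0.847 over single-transcript genes, and *Hoxb9* to 1.28. The cause of these reversals was not tested. Depth limits the low genes, in the MMPP libraries most.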
